A study of Mus musculus with 18 samples.

Results

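The genes described are 10 receptors and ligands with which macrophages bind dying cells, lipoproteins and microbes: Axl, Mertk, Gas6, Pros1, Marco, Msr1, Cd36, Scarb1, Mrc1 and Stab1. They were taken by gene symbol from 56953 gene IDs. All 10 were among the 13068 genes that passed the filter on low counts. They were chosen on the deposited counts with earlier results of these data known, in which Axl and Marco stood lower in T169A than in B6 cells. The differences between the genotypes are therefore given below as descriptions, without p-values.

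The study grew macrophages from mouse bone marrow for 7 days with 20% fetal bovine serum and 30% L929 cell supernatant, a source of the growth factor M-CSF. The T169A cells came from knock-in mice whose RIPK1 protein carries the T169A change, an alanine in place of a threonine, and the B6 cells came from C57BL/6J mice. Ripk1 encodes a kinase that acts downstream of TNF and Toll-like receptors in cell death and inflammatory signalling. Cells of each genotype received lipopolysaccharide together with 5z7 for 2 hours (LPS/5z7), lipopolysaccharide alone for 2 hours (LPS, a ligand of TLR4), or no stimulus. The labels do not spell out 5z7, which commonly stands for (5Z)-7-oxozeaenol, a compound that blocks the kinase TAK1. Neither the age and sex of the mice nor the number of mice per library is stated in the sources used here. Each of the 6 groups had 3 libraries, named here by the running number of their columns.

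Dying cells expose phosphatidylserine, and their removal by phagocytes is called efferocytosis. Gas6 and protein S, encoded by Pros1, bind this lipid on one side and the TAM receptor kinases on the other. Of these receptors, MERTK is typical of resting and tolerising macrophages, whereas AXL is typical of inflammatory settings. Scavenger receptors form a second arm: they take up modified lipoproteins, bacteria and debris through several unrelated protein folds.

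The libraries held 14.6 to 30.4 M counts. Levels are counts per M (CPM) after TMM scaling. Markers of macrophages summed to 30847 to 41141 CPM in the 18 libraries (6 genes, among them Adgre1, Csf1r and Lyz2). Markers of other cell types summed to at most 44.3 CPM for neutrophils, 12.2 CPM for fibroblasts and 5.67 CPM for T cells, with Cd3e at 0 in every group. Ripk1 itself stood at 95 ± 3.88 CPM in unstimulated T169A cells and at 89.7 ± 13.5 CPM in unstimulated B6 cells (SD, n = 3 each), and gene counts do not show the substituted codon. Replicates correlated least among unstimulated B6 libraries, at 0.973 for libraries 4 and 7, against at least 0.9862 for every library outside that group. Library 7 stood apart from its replicates. The chi-square per degree of freedom between counts was 81.3 against library 1 and 101 against library 4. Between libraries 1 and 4 it was 5.92. The sample titles carry letters, A to C for B6 and D to F for T169A, and each letter recurs across the treatments of its genotype. The columns carry no letters, though their running numbers follow the same order of genotype and treatment as the listed titles. The main fit did not pair libraries, so it leaves out any pairing that was there. Nothing in the labels says that replicates were separate animals or cultures, so p-values measure the spread between these libraries.

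LPS raised some of these genes and lowered others. Msr1 and Marco, encoding class A scavenger receptors, rose in both genotypes, and so did the receptor kinase gene Axl, although with library size alone Axl stood at -0.04 in T169A cells. Mertk, encoding its relative, fell, together with the ligand gene Gas6, the lipoprotein receptor gene Scarb1 and the stabilin gene Stab1. Pros1 passed the test in neither genotype with TMM scaling, and was called lower in both with library size alone. By edgeR's quasi-likelihood test with an adjusted p of at most 0.05, 7 of the 10 genes were called in T169A cells (3 higher, 4 lower), where 61.9% of all genes tested were called (30.3% higher, 31.5% lower). In B6 cells 9 of the 10 were called (5 higher, 4 lower), where 63.1% of all genes were called (29.6% higher, 33.5% lower). A count of 7 of 10 is near that background. The median log2 fold change of the 10 genes was 0.02 in T169A cells and 0.17 in B6 cells, beside -0.03 and -0.07 over all genes tested. Fewer cells of a type and less RNA per cell cannot be told apart in bulk libraries.

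**Figure D1:**
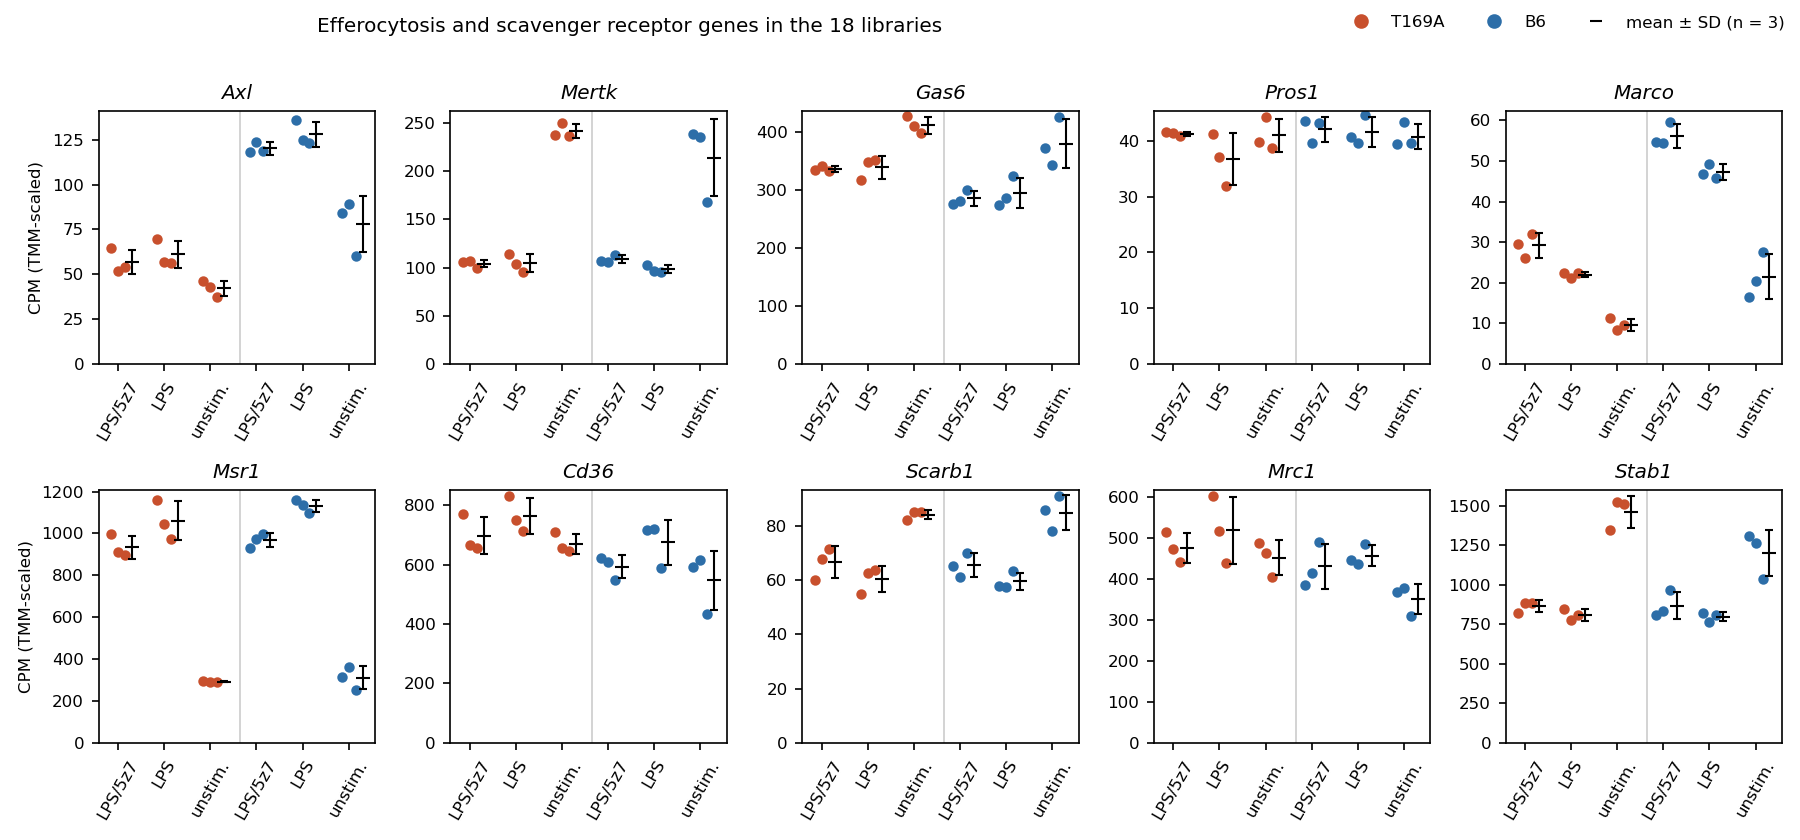
Level of each of the 10 genes in every library (points, CPM after TMM scaling, axis from 0), with the mean and SD of 3 libraries beside them, for T169A cells (left in each panel) and B6 cells (right), each under LPS/5z7, LPS and no stimulus. Msr1 stands at 976 to 1161 CPM in T169A LPS libraries against 291 to 294 CPM in unstimulated ones, and Axl and Marco are lower in T169A than in B6 libraries in all 3 conditions.

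Of the ligand genes, Gas6 was lower with LPS and Pros1 did not pass the test with TMM scaling. Gas6, whose product binds AXL most tightly of the TAM receptors, stood at 335, 342 and 332 CPM in T169A LPS/5z7 libraries, at 317, 348 and 352 CPM in T169A LPS libraries and at 428, 409.9 and 399 CPM in unstimulated T169A libraries. In B6 cells it stood at 276, 281 and 300.4 CPM with LPS/5z7, at 275, 286 and 325 CPM with LPS and at 372, 343 and 426 CPM without stimulus. All LPS libraries lay below all unstimulated libraries of their genotype. The log2 fold change with LPS was -0.28 ± 0.09 (SE) in T169A and -0.36 ± 0.09 in B6 cells (edgeR adjusted p = 0.0118 and 0.00199). The B6 value missed the threshold when only the groups compared were fitted (log2 fold change -0.31, edgeR adjusted p = 0.0889). Pros1, encoding the anticoagulant protein S that also activates MERTK, ranged from 31.9 to 44.7 CPM over all 18 libraries. LPS and unstimulated libraries overlapped in both genotypes, and the log2 fold changes were -0.15 ± 0.09 in T169A and 0.03 ± 0.09 in B6 cells (edgeR adjusted p = 0.159 and 0.82). Without the T169A LPS library 11, Pros1 passed the test in T169A cells (-0.26, edgeR adjusted p = 0.0257). The Pros1 result also depended on the scaling: with library size alone it was called lower, at -0.74 in T169A and -0.56 in B6 cells. Per kilobase of exon, Gas6 counts were 15 ± 2.69 times those of Pros1 in T169A LPS cells and 16.2 ± 1.23 times in unstimulated T169A cells. The ratio was 11.4 ± 0.473 in B6 LPS cells and 15 ± 2.28 in unstimulated B6 cells (SD, n = 3 each).

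The receptor kinase genes moved apart with LPS. Axl (ENSMUSG00000002602.17) had 64.4, 51.7 and 54.1 CPM in T169A LPS/5z7 libraries, 69.8, 56.9 and 56.4 CPM in T169A LPS libraries, and 46, 42.7 and 37.4 CPM in unstimulated T169A libraries. In B6 cells Axl had 118, 124 and 119 CPM with LPS/5z7, 136, 125 and 123 CPM with LPS, and 84.3, 89.4 and 60.1 CPM without stimulus. Every LPS library lay above every unstimulated library of its genotype, and every T169A library lay below every B6 library under the same treatment. The log2 fold change with LPS was 0.54 ± 0.13 in T169A and 0.71 ± 0.13 in B6 cells (edgeR adjusted p = 0.00211 and 0.000152). This rise depended on the scaling: with library size alone it was -0.04 in T169A and 0.13 in B6 cells (edgeR adjusted p = 0.753 and 0.347).

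Mertk (ENSMUSG00000014361.6) had 106, 107 and 99.7 CPM in T169A LPS/5z7 libraries, 114, 104 and 95.2 CPM in T169A LPS libraries, and 238, 250.1 and 237 CPM in unstimulated T169A libraries. In B6 cells it had 107, 106 and 113 CPM with LPS/5z7, 103, 96.3 and 95.4 CPM with LPS, and 239, 235 and 168 CPM without stimulus. Stimulated and unstimulated libraries did not overlap in either genotype, and the lowest unstimulated value was that of B6 library 7. The log2 fold change with LPS was -1.21 ± 0.11 in T169A and -1.12 ± 0.11 in B6 cells (edgeR adjusted p = 4.69e-08 and 1.17e-07), and the fall was larger with library size alone (-1.79 and -1.71).

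The promoters of Axl and Mertk are shown because these related receptors responded in opposite directions with TMM scaling. Each line is the 250 bases before the RefSeq transcript start on GRCm38.p6, read in the direction of transcription: Axl at chr7:25788734-25788983 (minus strand) and Mertk at chr2:128698665-128698914 (plus strand). Capitals mark matches on either strand to the core of the PU.1 motif (GAGGAA) or to the GC box (GGGCGG). These motifs were picked after the promoters had been looked at.
Axl: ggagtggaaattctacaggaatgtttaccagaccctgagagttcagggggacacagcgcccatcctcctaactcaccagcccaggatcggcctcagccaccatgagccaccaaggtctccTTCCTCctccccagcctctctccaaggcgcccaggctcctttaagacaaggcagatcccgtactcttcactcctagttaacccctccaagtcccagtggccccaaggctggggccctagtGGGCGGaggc
Mertk: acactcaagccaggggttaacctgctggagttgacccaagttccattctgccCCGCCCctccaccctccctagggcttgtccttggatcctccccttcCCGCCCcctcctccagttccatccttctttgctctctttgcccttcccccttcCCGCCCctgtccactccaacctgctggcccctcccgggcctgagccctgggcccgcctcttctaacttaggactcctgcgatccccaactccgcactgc
The Axl promoter holds a PU.1 core 130 bases and a GC box 10 bases before the start. The Mertk promoter holds 3 GC boxes, 198, 152 and 99 bases before the start, and no PU.1 core in this window. Bases just after the RefSeq start were looked for in the opening of GENCODE M21 transcripts of the gene. They were found for Axl and not for Mertk, so the place of the Mertk window is less certain. Of 32851 promoters of this length, 23.3% hold the PU.1 core and 32.7% the GC box. A match is a description of the letters and not a bound site.

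Within a library, the counts of Axl and Mertk can be compared without any scaling between libraries. Per kilobase of exon, Axl had 0.526, 0.47 and 0.511 times the counts of Mertk in T169A LPS libraries and 0.167, 0.147 and 0.136 times in unstimulated T169A libraries. In B6 cells the ratio was 1.13, 1.12 and 1.11 with LPS and 0.303, 0.327 and 0.308 without stimulus. The ratio of Axl to Mertk was thus 3.36-fold higher with LPS in T169A and 3.58-fold higher in B6 cells, with no overlap between groups. In each genotype the exact permutation test gave a two-sided p of 0.1, the smallest that 3 against 3 libraries allow. T169A cells given LPS averaged 0.502 ± 0.0289, and B6 cells given LPS 1.12 ± 0.0101 (SD, n = 3 each). With LPS/5z7 the ratio was 0.47 ± 0.0534 in T169A and 0.954 ± 0.0527 in B6 cells.

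**Figure D2:**
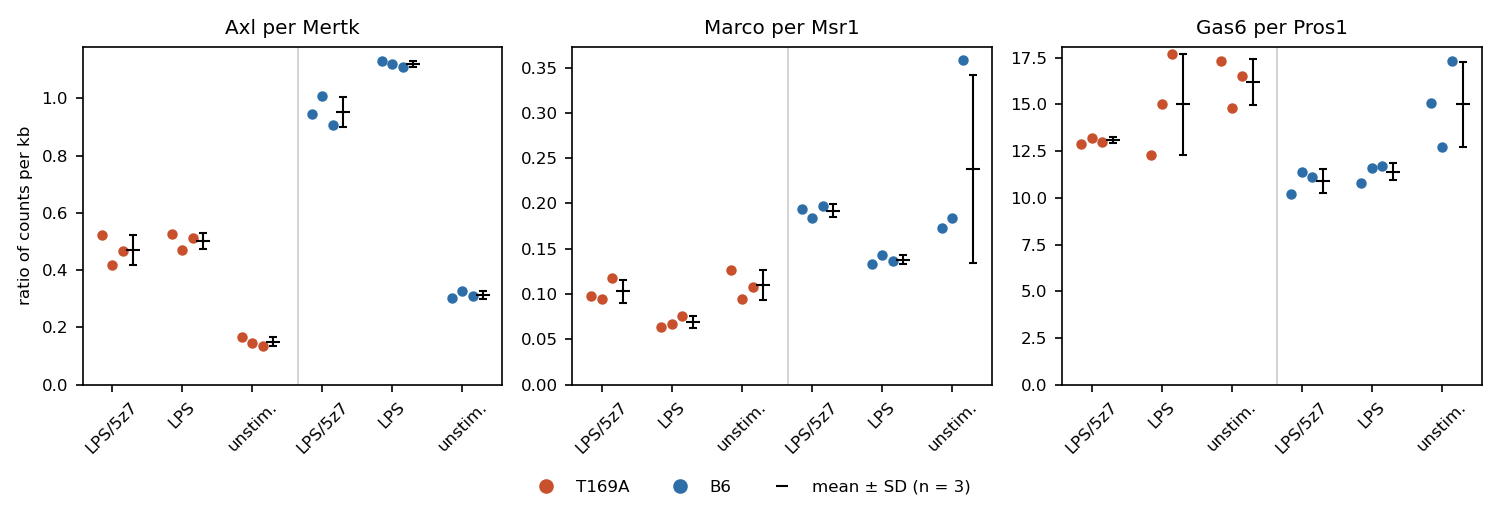
Ratio of counts per kilobase of exon within each library (points, axis from 0), with the mean and SD of 3 libraries, for Axl per Mertk, Marco per Msr1 and Gas6 per Pros1, in T169A and B6 cells under LPS/5z7, LPS and no stimulus. Axl per Mertk averages 0.502 in T169A LPS libraries against 0.15 in unstimulated ones, and 1.12 in B6 LPS libraries against 0.313 in unstimulated ones.

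The class A scavenger receptor genes had the largest rises among the 10. Msr1, encoding scavenger receptor A, which takes up modified low density lipoprotein, had 1161, 1047 and 976 CPM in T169A LPS libraries and 294, 291 and 291 CPM in unstimulated T169A libraries. In B6 cells Msr1 had 1159, 1137 and 1098 CPM with LPS and 315, 364 and 253 CPM without stimulus. The groups were far apart, and the log2 fold change was 1.86 ± 0.11 in T169A and 1.86 ± 0.11 in B6 cells (edgeR adjusted p = 1.68e-10 and 1.69e-10).

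Marco (ENSMUSG00000026390.8), encoding a receptor for bacteria and particles, was the lowest of the 10 per kilobase in unstimulated T169A cells, at 5.05 CPM per kilobase. It had 29.5, 26 and 32 CPM in T169A LPS/5z7 libraries, 22.4, 21.3 and 22.5 CPM in T169A LPS libraries and 11.3, 8.32 and 9.55 CPM in unstimulated T169A libraries. In B6 cells Marco had 54.6, 54.4 and 59.7 CPM with LPS/5z7, 46.8, 49.3 and 45.7 CPM with LPS and 16.5, 20.4 and 27.5 CPM without stimulus. The highest unstimulated B6 value was that of library 7, and the T169A and B6 libraries did not overlap under any treatment. The log2 fold change with LPS was 1.18 ± 0.15 in T169A and 1.15 ± 0.14 in B6 cells (edgeR adjusted p = 2.57e-06 and 1.93e-06). Scaled by library size alone, Marco and Msr1 still rose, by 0.60 and 1.28 in T169A, and by 0.55 and 1.27 in B6 cells.

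The Marco promoter is shown because Marco shared with Axl both the rise under LPS with TMM scaling and the lower counts in T169A cells. It lies at chr1:120505025-120505274 (minus strand, RefSeq, GRCm38.p6), with capitals again for the PU.1 core.
Marco: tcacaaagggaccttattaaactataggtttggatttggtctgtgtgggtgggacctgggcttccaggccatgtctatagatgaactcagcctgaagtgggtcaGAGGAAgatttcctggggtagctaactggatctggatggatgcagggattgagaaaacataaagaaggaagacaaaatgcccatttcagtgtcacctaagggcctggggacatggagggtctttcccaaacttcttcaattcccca
Its PU.1 core lies 146 bases before the start. Promoter windows were matched for 8 of the 10 genes. The bases after the RefSeq start were found in a GENCODE transcript for Marco, and not for Mertk, Gas6 and Cd36. PU.1 cores also stood in those of Mrc1 (180, 167 and 35 bases before the start) and Stab1 (30 bases), so that 4 of the 8 windows hold it, beside 23.3% of all promoters. GC boxes stood in the windows of Axl, Mertk, Gas6, Pros1, Cd36 and Mrc1, beside 32.7% of all promoters. In these 8 windows, no match was found to the AP-1 motif (TGANTCA, in 6.75% of all promoters), the IRF motif (2.98%), the NF-kB motif (1.21%) or the E-box CACGTG (6.02%), searched on both strands. This says only that these letters are not in these windows.

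Of the lipid receptor genes, Scarb1 fell in both genotypes, and Cd36 was called higher in B6 and not in T169A cells. Cd36, encoding a receptor for oxidised lipoprotein and fatty acids, had 831, 749 and 714 CPM in T169A LPS libraries and 709, 655 and 646 CPM in unstimulated T169A libraries. In B6 cells Cd36 had 716, 720.4 and 588 CPM with LPS and 592, 615 and 433 CPM without stimulus. The groups overlapped in B6 and not in T169A cells. The log2 fold change was 0.19 ± 0.12 in T169A and 0.30 ± 0.12 in B6 cells (edgeR adjusted p = 0.195 and 0.0418). The B6 call was lost without LPS library 2 (0.26, edgeR adjusted p = 0.131), LPS library 5 (0.25, 0.141) or unstimulated library 7 (0.16, 0.176). Scaled by library size alone, Cd36 was lower with LPS, at -0.39 in T169A and -0.29 in B6 cells. Scarb1, encoding the high density lipoprotein receptor SR-BI, which also binds phosphatidylserine, had 55.1, 62.6 and 63.8 CPM in T169A LPS libraries and 82.4, 85.2 and 85.1 CPM in unstimulated T169A libraries. In B6 cells Scarb1 had 58, 57.6 and 63.3 CPM with LPS and 85.9, 78.1 and 91 CPM without stimulus. LPS and unstimulated libraries did not overlap, and the log2 fold change of Scarb1 was -0.48 ± 0.09 in T169A and -0.51 ± 0.09 in B6 cells (edgeR adjusted p = 0.000151 and 7.42e-05).

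Of the endocytic receptor genes, Stab1 fell in both genotypes, and Mrc1 was called higher in B6 and not in T169A cells. Mrc1, encoding the mannose receptor CD206, had 602, 518 and 438 CPM in T169A LPS libraries and 488, 464 and 405 CPM in unstimulated T169A libraries. In B6 cells Mrc1 had 447, 437 and 485 CPM with LPS and 367, 377 and 309.9 CPM without stimulus. The libraries overlapped in T169A and not in B6 cells, with log2 fold changes of 0.20 ± 0.12 and 0.38 ± 0.12 (edgeR adjusted p = 0.175 in T169A and 0.0139 in B6 cells). Mrc1 was lower with LPS when scaled by library size alone, at -0.38 in T169A and -0.21 in B6 cells. Stab1, encoding stabilin-1, a receptor for phosphatidylserine and extracellular debris, had 847, 775 and 809 CPM in T169A LPS libraries and 1349, 1527 and 1511 CPM in unstimulated T169A libraries. In B6 cells Stab1 had 821, 765 and 808 CPM with LPS and 1309.9, 1264 and 1039 CPM without stimulus. The groups did not overlap, and the log2 fold change of Stab1 was -0.85 ± 0.10 in T169A and -0.59 ± 0.10 in B6 cells (edgeR adjusted p = 9.92e-07 and 5.77e-05).

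**Figure D3:**
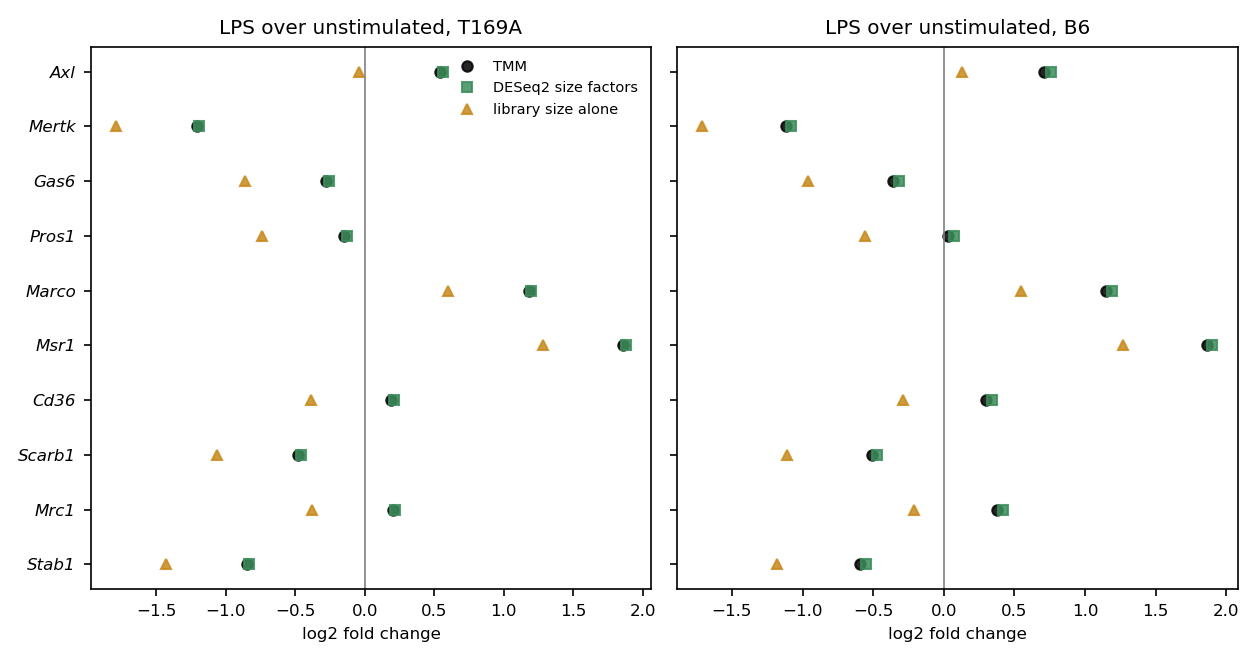
Log2 fold change of each gene, LPS over unstimulated, in T169A cells (left) and B6 cells (right) with 3 ways of scaling libraries: TMM (circles), DESeq2 size factors (squares) and library size alone (triangles). Library size alone shifts every gene down, with Axl in T169A cells at -0.04 against 0.54 under TMM and Msr1 at 1.28 against 1.86.

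TMM scaling rests on the premise that most genes do not change. Its factors lay between 0.83 and 0.86 in LPS libraries and between 1.24 and 1.28 in unstimulated ones. With these factors, 61.9% of all genes in T169A and 63.1% in B6 cells were called with LPS. Which scaling comes nearer to the amounts per cell was not tested. Under scaling by library size alone the median log2 fold change of all genes was -0.61 in T169A and -0.66 in B6 cells, and 9 of the 10 genes were called in T169A (2 higher, 7 lower) and 8 in B6 cells (2 higher, 6 lower). Msr1 and Marco were the genes called higher, and Mertk, Gas6, Scarb1 and Stab1 were called lower, under both scalings in both genotypes.

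Per kilobase of exon, the order of the levels changed with LPS. In unstimulated T169A cells Cd36, Gas6 and Stab1 came first, at 187, 162 and 142 CPM per kilobase, then Mrc1 at 71, Mertk at 55.7 and Msr1 at 46. Pros1 at 10 and Scarb1 at 9.91 overlapped, followed by Axl at 8.36 and Marco at 5.05 CPM per kilobase. In T169A LPS cells Msr1 was second, at 167 CPM per kilobase behind Cd36 at 213, and Axl at 12.1 and Marco at 11.4 overlapped. In B6 LPS cells Cd36 at 188 and Msr1 at 178 overlapped, and Axl at 25.4, Marco at 24.6 and Mertk at 22.7 CPM per kilobase stood in a row, of which the neighbours overlapped. In unstimulated B6 cells Mertk at 49.4 was far above Axl at 15.5 CPM per kilobase.

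With LPS/5z7 set against LPS alone, none of the 10 genes was called in either genotype by edgeR's quasi-likelihood test, where 13% of all genes tested were called in T169A and 13.8% in B6 cells. At an unadjusted p under 0.05, 1 of the 10 passed in T169A cells, which was Marco, and 0 in B6 cells. DESeq2 called 0 in both. Marco averaged 29.2 ± 2.99 CPM with LPS/5z7 and 22 ± 0.677 CPM with LPS in T169A cells, and 56.2 ± 3.03 CPM with LPS/5z7 and 47.3 ± 1.85 CPM with LPS in B6 cells (SD, n = 3 each). In both genotypes every LPS/5z7 library lay above every LPS library. The log2 difference was 0.40 in T169A (95% interval 0.10 to 0.71, edgeR adjusted p = 0.0777) and 0.25 in B6 cells (-0.04 to 0.54, adjusted p = 0.284). Marco passed the threshold in some other fits, at adjusted p = 0.0387 in T169A and 0.0464 in B6 cells when only the groups compared were fitted.

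Msr1 stood on the other side, at 934 ± 55 CPM with LPS/5z7 and 1061 ± 93.5 CPM with LPS in T169A cells, and at 968 ± 34.8 CPM with LPS/5z7 and 1131 ± 30.7 CPM with LPS in B6 cells. Its log2 difference was -0.18 in T169A (95% interval -0.41 to 0.04, edgeR adjusted p = 0.329) and -0.23 in B6 cells (-0.45 to 0.00, adjusted p = 0.2). Set against each other within a library, Marco per Msr1 was 0.0976, 0.0943 and 0.118 with LPS/5z7 and 0.0634, 0.0669 and 0.076 with LPS in T169A cells. In B6 cells the ratio was 0.194, 0.184 and 0.197 with LPS/5z7 and 0.133, 0.143 and 0.137 with LPS. This ratio, which needs no scaling between libraries, was 1.5-fold higher with LPS/5z7 in T169A and 1.39-fold higher in B6 cells, without overlap. The exact permutation test gave a two-sided p of 0.1 in each, the smallest possible, and 3 such ratios were examined. Axl per Mertk was 0.851-fold with LPS/5z7 in B6 cells, without overlap, and 0.932-fold in T169A cells, where the libraries overlapped (exact permutation p = 0.1 and 0.4).

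For the other 8 genes the 95% intervals of the log2 difference between LPS/5z7 and LPS lay within -0.45 and 0.38 in both genotypes. Mertk differed by -0.01 (-0.24 to 0.23) in T169A and by 0.14 (-0.09 to 0.38) in B6 cells. Axl differed by -0.11 (-0.39 to 0.18) in T169A and by -0.09 (-0.37 to 0.19) in B6 cells. A change of Mertk or Axl as large as that with LPS alone under TMM scaling lies outside these intervals. For Axl this rests on the scaling: with library size alone its change with LPS was -0.04 in T169A and 0.13 in B6 cells.

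**Figure D4:**
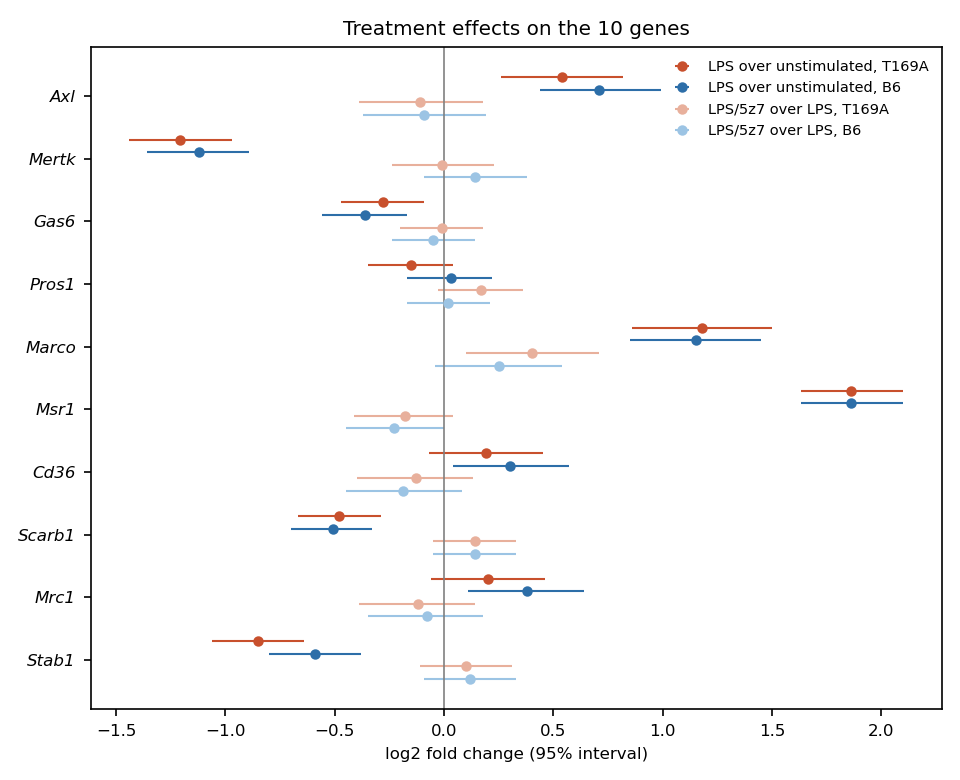
Log2 fold change with 95% interval of each gene for LPS over unstimulated (dark) and LPS/5z7 over LPS (light) in T169A cells (red) and B6 cells (blue). Msr1 and Marco lie right of 0 and Mertk and Stab1 left of 0 for LPS, whereas the LPS/5z7 values lie close to 0, apart from Marco at 0.40 in T169A cells.

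LPS/5z7 was also set against no stimulus, a comparison that shares its unstimulated libraries with the LPS one. The edgeR test called 7 of the 10 genes in each genotype (3 higher, 4 lower), where 55.6% of all genes were called in T169A (28.1% higher, 27.5% lower) and 55.5% in B6 cells (27.6% higher, 27.9% lower). Axl, Marco and Msr1 were higher and Mertk, Gas6, Scarb1 and Stab1 lower in each. Marco was higher by 1.58 in T169A and 1.39 in B6 cells, and Mertk stood at -1.22 and -0.98 on the log2 scale (edgeR adjusted p at most 8.32e-07). Axl was higher by 0.43 in T169A cells (edgeR adjusted p = 0.0111), a call lost without LPS/5z7 library 12 (0.31, 0.0873) or unstimulated library 16 (0.34, 0.0748), and by 0.62 in B6 cells (0.000676). Scaled by library size alone, the Axl values were 0.01 and 0.20. Mrc1 missed the threshold in B6 cells (0.29, edgeR adjusted p = 0.0553) and passed it without LPS/5z7 library 3 (0.37, 0.0351) or unstimulated library 4 (0.35, 0.046).

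Between the genotypes, Axl and Marco were the genes that stood apart, as in the results with which the 10 were chosen. Axl averaged 42.1 ± 4.32 CPM in T169A and 77.9 ± 15.7 CPM in B6 cells without stimulus (SD, n = 3 each). With LPS it averaged 61.1 ± 7.6 CPM in T169A and 128 ± 6.93 CPM in B6 cells, and with LPS/5z7 56.7 ± 6.76 CPM in T169A and 120.3 ± 3.51 CPM in B6 cells. The log2 fold change of Axl, T169A over B6, was -0.89 ± 0.13 without stimulus, -1.07 ± 0.13 with LPS and -1.08 ± 0.13 with LPS/5z7. That of Marco was -1.14 ± 0.15, -1.10 ± 0.14 and -0.95 ± 0.14 in the same order. Leaving out single libraries kept Axl between -1.19 and -0.78 and Marco between -1.29 and -0.87 over the 3 conditions. As a count beside the background, 2 of the 10 (Axl and Marco, both lower) were called in each condition, where 0.214% (unstimulated), 0.222% (LPS) and 0.161% (LPS/5z7) of all genes were called, and 0.138%, 0.138% and 0.0995% in the lower direction. With only the groups compared in the fit, the unstimulated count was 0. Nothing is read from these counts, since this contrast chose the members.

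The differences of the other 8 genes were smaller. Mertk differed between T169A and B6 cells by 0.17, 0.09 and -0.06 (SE 0.11 each) without stimulus, with LPS and with LPS/5z7, and its libraries overlapped in all 3 conditions. Msr1 differed by -0.09, -0.09 and -0.05, again with overlap throughout. Gas6 stood higher in T169A cells, by 0.12, 0.20 and 0.23 (SE 0.09 each), with separate libraries only under LPS/5z7. Cd36 stood 0.29, 0.18 and 0.23 higher (SE 0.12 each), with separate libraries without stimulus and with LPS/5z7, and Mrc1 0.36, 0.19 and 0.15 higher, with separate libraries without stimulus. Stab1 differed by 0.28, 0.02 and -0.01, with separate libraries without stimulus, and Scarb1 and Pros1 by at most 0.17 in size. The unstimulated B6 library 7 differed from the mean of libraries 1 and 4 by -0.53 for Axl, -0.50 for Mertk, -0.48 for Cd36, -0.42 for Msr1, -0.31 for Stab1 and 0.58 for Marco on the log2 scale. Without library 7 the unstimulated log2 fold change was -1.05 for Axl and -0.93 for Marco.

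**Figure D5:**
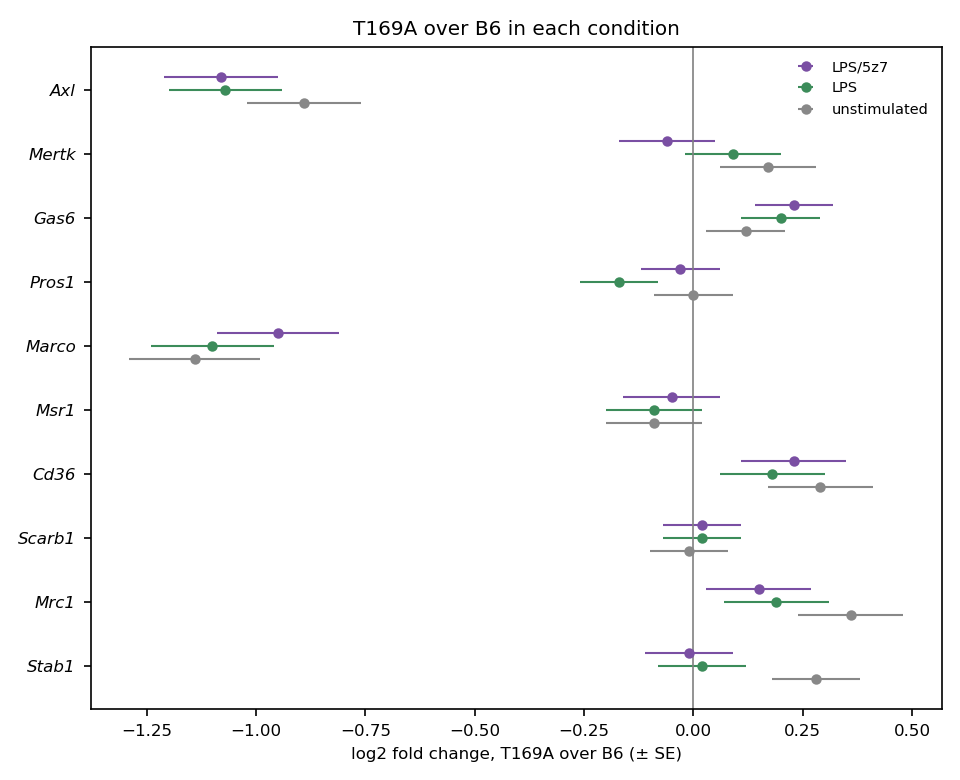
Log2 fold change, T169A over B6, with SE (bars) for each gene under LPS/5z7, LPS and no stimulus. Axl and Marco lie between -1.14 and -0.89 in all 3 conditions, and the other 8 genes between -0.17 and 0.36.

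The genotypes also differed completely in genes of the sex chromosomes. Xist, the RNA expressed from the inactive X chromosome of female cells, was at most 1.11 CPM in T169A libraries and 348 to 1337 CPM in B6 libraries. The Y-linked gene Ddx3y stood at 72.1 to 115 CPM in T169A libraries and at most 0.04 CPM in B6 libraries, and Eif2s3y, Kdm5d and Uty followed it. The genotype and the sex of the cells cannot be told apart for Axl, on chromosome 7, or Marco, on chromosome 1. Fibroblast markers summed to 4.83 to 12.2 CPM in T169A and 3.04 to 6.89 CPM in B6 libraries, and their part in the differences was not tested.

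Over the 18 libraries, the genes whose log2 CPM followed Axl most closely among 7801 genes with a mean of at least 10 CPM were Eif2s3x (Pearson r = 0.978) and Xist (0.884), both on the X chromosome, then Plxdc2 (0.877), Tmem132a (0.871) and Tgfbi (0.871). Those closest to Marco were Lsp1 (0.939), Grk3 (0.918), Napsa (0.917), Lmo4 (0.915) and Cars (0.912). These values are descriptions: the libraries share genotype, treatment and scaling.

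Whether the response itself differed with the genotype was tested as a difference of effects, on the same libraries. None of the 10 genes, and 0% of all genes tested, passed for any of the 3 treatment comparisons by edgeR's quasi-likelihood test, and 0 of the 10 had an unadjusted p under 0.05. DESeq2 also called none of the 10, and over all genes it called 2, both for LPS/5z7 against unstimulated. In the edgeR fit, 421 genes had an unadjusted p under 0.05 for LPS against unstimulated, 151 for LPS/5z7 against LPS and 461 for LPS/5z7 against unstimulated. The LPS effect on Axl differed by -0.18 between T169A and B6 cells (95% interval -0.57 to 0.22), that on Marco by 0.04 (-0.39 to 0.47), that on Mertk by -0.08 (-0.41 to 0.24) and that on Msr1 by 0.00 (-0.32 to 0.32), on the log2 scale. The Stab1 interval, -0.55 to 0.04 around -0.26, was the farthest to one side.

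Other genes of the pathway were taken from 6 lists, in which 62 of 72 entries passed the filter. The lists were written with earlier results of these data known, so their counts are descriptions. With LPS, 41 of the 62 were called in T169A cells (20 higher, 21 lower) and 43 in B6 cells (21 higher, 22 lower), close to the 61.9% and 63.1% of all genes. Under library size alone these calls were 13 higher and 37 lower in T169A, and 14 higher and 39 lower in B6 cells. The genes named next kept their direction and call with library size alone unless stated.

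Among 14 other receptors and bridging proteins for apoptotic cells, 3 rose and 4 fell in each genotype. Itgav, encoding the alpha V integrin that binds dying cells through the bridging protein MFG-E8, averaged 1999 ± 406 CPM with LPS and 386 ± 16.1 CPM without stimulus in T169A cells, a log2 fold change of 2.37 ± 0.21 (2.66 ± 0.21 in B6 cells). Cd300lb, encoding an activating receptor of the CD300 family, averaged 26.8 ± 2.64 CPM with LPS and 315 ± 3.99 CPM without stimulus in T169A cells (-3.55 ± 0.12, and -3.70 ± 0.12 in B6 cells). Its relative Cd300lf, encoding a phosphatidylserine receptor, had log2 fold changes of -1.74 ± 0.14 in T169A and -1.83 ± 0.14 in B6 cells, and Anxa1, encoding annexin A1, rose by 1.42 ± 0.08 in T169A and 1.30 ± 0.08 in B6 cells.

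Of 15 engulfment and digestion genes, 5 rose and 5 fell in each genotype. The adaptor gene Crk rose by 0.95 ± 0.10 in both genotypes, and Rubcn, encoding a regulator of LC3-associated phagocytosis, stood at -1.44 ± 0.10 in T169A and -1.23 ± 0.10 in B6 cells. Rab5a, encoding a GTPase of early endosomes, rose by 0.87 ± 0.13 and 1 ± 0.13, and Wipf1, encoding a partner of the actin regulator WASP, stood at -1.59 ± 0.11 and -1.49 ± 0.11. Among 12 other scavenger receptors, 2 rose and 3 fell in T169A, and 3 rose and 4 fell in B6 cells. Olr1, encoding the oxidised lipoprotein receptor LOX-1, averaged 418 ± 29.3 CPM with LPS and 3.79 ± 2.4 CPM without stimulus in T169A cells, and 407 ± 10.4 CPM with LPS and 4.51 ± 2.31 CPM without stimulus in B6 cells. Its log2 fold changes were 6.79 ± 0.36 and 6.44 ± 0.35. Cxcl16, encoding a membrane chemokine that is also a scavenger receptor, rose by 1.29 ± 0.10 in T169A and 0.98 ± 0.10 in B6 cells. Scarb2, encoding the lysosomal membrane protein LIMP-2, stood at -0.34 ± 0.11 and -0.36 ± 0.11, and Stab2, encoding the relative of stabilin-1, at -0.79 ± 0.15 and -0.53 ± 0.16.

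Of 11 nuclear receptors and macrophage factors that control such genes, 3 rose and 7 fell in T169A, and 3 rose and 8 fell in B6 cells. Rxra, encoding the partner of LXR and PPAR receptors, stood at -1.89 ± 0.11 in T169A and -1.83 ± 0.11 in B6 cells. Spi1, encoding PU.1, rose by 1.18 ± 0.12 in T169A and 0.95 ± 0.12 in B6 cells. Nr1h2, encoding LXR beta, rose by 0.40 ± 0.13 and 0.37 ± 0.13, and stood at -0.18 and -0.22 with library size alone. Of 5 genes for signals that hold back phagocytosis, 3 rose and 1 fell in each genotype, with Cd274 at 3.85 ± 0.29 and Cd47 at 0.89 ± 0.08 in T169A cells, and with Sirpa, encoding the CD47 receptor, lower at -0.23 ± 0.08. Of 5 genes for proteases that shed surface receptors and their regulators, 4 rose in each genotype and 1 fell in T169A cells. Rhbdf2, encoding iRhom2, which brings the protease ADAM17 to the cell surface, averaged 537 ± 18.7 CPM with LPS and 80.3 ± 4.33 CPM without stimulus in T169A cells (2.74 ± 0.12), and Mmp14, encoding a membrane metalloprotease, had a log2 fold change of 2.72 ± 0.12. The largest adjusted p among the list genes named here was 0.0207 in T169A (Sirpa) and 0.022 in B6 cells (Nr1h2) by edgeR's quasi-likelihood test.

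With LPS/5z7 against LPS, 17 of the 62 list genes were called in each genotype (3 higher, 14 lower), beside 13% of all genes in T169A and 13.8% in B6 cells. Under library size alone 5 were higher and 9 lower in T169A, and 6 higher and 9 lower in B6 cells. Olr1 averaged 171 ± 25.6 CPM with LPS/5z7 and 418 ± 29.3 CPM with LPS in T169A cells (-1.29 ± 0.27, and -1.14 ± 0.27 in B6 cells). Cd300lf differed by -1.08 ± 0.16 and -1.21 ± 0.17, and Rhbdf2 by -0.77 ± 0.11 and -0.76 ± 0.11 in T169A and B6 cells, with edgeR adjusted p of at most 0.00981 for these 3 genes in either genotype. Rubcn was higher by 0.50 ± 0.10 and 0.55 ± 0.10.

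Between the genotypes, 2 of the 62 list genes were called in unstimulated cells, beside 0.214% of all genes. With LPS 0 of the 62 were called, beside 0.222%, and with LPS/5z7 0 were called, beside 0.161%. Nothing is read from these counts, and the 2 genes were named after values had been seen. Mmp14 averaged 35.1 ± 7.23 CPM in T169A and 62.2 ± 2.7 CPM in B6 cells, a log2 fold change of -0.83 ± 0.11. Stab2 averaged 6.61 ± 0.329 CPM in T169A and 3.97 ± 0.428 CPM in B6 cells (0.74 ± 0.15), a call close to the threshold at a low level. Neither was called with LPS, but both differences kept their direction. Mmp14 then averaged 231 ± 15.1 CPM in T169A and 301 ± 10.4 CPM in B6 cells (-0.38 ± 0.11). Stab2 averaged 3.86 ± 0.798 CPM in T169A and 2.78 ± 0.422 CPM in B6 cells (0.48 ± 0.17). For these genes, too, genotype and the sex of the cells cannot be told apart.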

How the data were processed

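Total RNA of cultured mouse macrophages was sequenced after directional TruSeq library preparation, per the labels' protocols. Raw gene counts were deposited; the submitters' processing notes name Trim Galore, STAR, featureCounts and the build GRCm39. Versions and the strand setting are not given in the sources used here. Exons of Gas6 and Stab1 share 1.33% and 1.09% of their length with genes on the opposite strand.

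Columns name a group and a number, without the letters of the sample titles, so they were tied to groups. Symbols matched 91.4% of IDs and 99.8% of counts. Exon lengths came from GENCODE M21 (GRCm38).

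The main analysis used edgeR 4.0.16 (R 4.3.3): filterByExpr, TMM, a robust quasi-likelihood fit of 6 group means over 18 libraries, and F-tests adjusted by Benjamini-Hochberg over 13068 genes (threshold 0.05). SEs are the log2 fold change over the square root of F, and intervals are at 95%. The fit was tested on simulated data in which few genes changed, equally up and down. That test does not bear on the choice of scaling. Log2 CPM for correlations used a prior count of 2. Alternatives were DESeq2 1.42.0, other scalings and filters, fits on the groups compared alone, a replicate block and each library left out. Figures used Python 3.11.15 with matplotlib 3.10.9.

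The members and lists were chosen with earlier results of these data known. Named besides the 10 were Ripk1, from each list the 2 called genes with the smallest p per direction with LPS in B6 cells that reached 5 CPM in a group (1 is not reported here), and the 5 genes most like Axl and Marco. Mmp14 and Stab2 were named between genotypes, and the 3 ratios were formed, after values had been seen.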

Additional observations from a re-analysis of the deposited data

How the results depend on the processing

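Of 1710 values of the 10 genes under alternatives, 1670 kept their side of the threshold (and, where called, their direction) or, between the genotypes, moved by less than 1 SD of the replicates. Scaling by library size alone changed the sign of 11 values, each called with TMM, with library size alone or with both. With LPS against unstimulated cells these were Axl (-0.04), Cd36 (-0.39) and Mrc1 (-0.38) in T169A, and Pros1 (-0.56), Cd36 (-0.29) and Mrc1 (-0.21) in B6 cells. With LPS/5z7 against unstimulated cells they were Pros1 (-0.41), Cd36 (-0.37) and Mrc1 (-0.35) in T169A, and Pros1 (-0.38) and Cd36 (-0.31) in B6 cells.

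The count of the 10 genes called with LPS/5z7 against LPS was 0 in T169A cells, and became 1 with only the groups compared or without a filter (Marco in each) and 3 with library size alone. In B6 cells it was 0, and became 2 with only the groups compared (Marco higher, Msr1 lower) and 4 with library size alone. Without any single library both counts ranged from 0 to 0. The count for T169A against B6 without stimulus was 2, and 0 when only those groups were fitted, where Axl and Marco stood at -0.89 and -1.15; the cause was not tested. The counts without single libraries ranged from 7 to 8 (T169A) and 8 to 9 (B6) for LPS, from 6 to 7 and 7 to 8 for LPS/5z7 against unstimulated cells, and from 2 to 2 between the genotypes.

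Columns show no letters, so the replicate block used sets of consecutive running numbers. Libraries of a set correlated by -0.0239 to 0.43 in T169A and -0.0463 to 0.456 in B6 cells, and 12 of 18 libraries correlated best within their set. Libraries of different sets correlated by -0.325 to 0.143 in T169A and -0.448 to 0.416 in B6 cells. This is a hint of pairing from the data. The sample titles, listed from A to F, also run through genotype and treatment in the order of the running numbers. No label ties the numbers to letters or animals, and not every pair of a set exceeded 0.1. The fit without the block was kept, so it leaves out any pairing that was there. With the replicate block 3 calls were gained and none lost over the comparisons of stimuli and their differences between genotypes: Marco for LPS/5z7 against LPS in T169A cells (1 gene called, edgeR adjusted p = 0.0364), Cd36 for LPS against unstimulated in T169A cells (8 called, adjusted p = 0.0354) and Mrc1 for LPS/5z7 against unstimulated in B6 cells (8 called, adjusted p = 0.0227).

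The lowest count of any of the 10 genes in a library was 212 (Marco).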
